A study of Saccharomyces cerevisiae with 19 samples.

Results

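The genes described here are 10 regulators of carbon source use in the yeast Saccharomyces cerevisiae, chosen by name: SNF1, SNF4, REG1, MIG1, MIG2, MIG3, CAT8, SIP4, ADR1 and HAP4. They are 10 of the 6409 named features present in both deposited tables of read counts, and all 10 passed the filter on low counts. The study changed Pcf11, a subunit of the machinery that cleaves and polyadenylates messenger RNA, and sequenced RNA of 5 strains with 3 biological replicates each. WT carries the unaltered gene. The strain labelled ΔPcf11 is given as a deletion of PCF11, Pcf11-AARR carries 4 changed residues in the protein, and Pcf11-OE1 and Pcf11-OE2 overexpress it. One overexpression construct joins the strong promoter TEF1p to the terminator GRS1t and the other joins the weak promoter CDC60p to the DIT1 terminator, and the labels do not say which belongs to which strain. Every library has the same growth label of 36 h and the names S288C and CEN.PK2-1C together, so the strain background is not settled by the labels, nor is the sugar in the medium given. A further 2 immunoprecipitations and 2 inputs were made by CLIP, a method in which RNA bound to a protein is crosslinked to it, pulled down and sequenced, and the protein here was Flag-tagged overexpressed Pcf11.

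Snf1 is the catalytic subunit of a protein kinase that lets yeast use carbon sources other than glucose, and Snf4 is its activating subunit. When glucose is plentiful, the phosphatase Glc7, brought by its targeting subunit Reg1, keeps the kinase inactive, and the zinc finger proteins Mig1, Mig2 and Mig3 repress genes for other sugars and for respiration. When glucose runs out, active Snf1 phosphorylates Mig1, which leaves the nucleus, and the activators Cat8, Sip4, Adr1 and Hap4 switch on gluconeogenesis, the glyoxylate cycle, fatty acid and ethanol use, and respiration. All of these regulators also act through changes in the proteins, which messenger RNA levels do not show.

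The 15 libraries held 25930079 to 45796931 counts, and the 10 regulators had 616 to 11513 counts each. PCF11 itself stood at 15.2 ± 2.13 CPM (read counts scaled to a common library total, mean ± SD, n = 3) in WT. The ΔPcf11 libraries held 13.0 ± 0.893 CPM of it and the Pcf11-AARR libraries 21.2 ± 1.22. It reached 589.8 ± 33.0 CPM in Pcf11-OE1 and 76.2 ± 11.7 in Pcf11-OE2. The reads of PCF11 were thus not missing from the libraries labelled ΔPcf11, and that name is used here for the label only. The authors' mapping table gives 88.3 ± 6.14% of reads mapped in WT, 58.4 ± 2.98% in ΔPcf11 and 69.8 ± 20.9% in Pcf11-AARR (SD, n = 3 each), a difference that moves with the comparisons with WT and whose part in them was not tested. The labels give no batch. The counts of Pcf11-OE1 and Pcf11-OE2 were deposited apart from those of ΔPcf11 and Pcf11-AARR, with the same WT libraries in both sets. Whether the libraries were prepared or sequenced apart is not stated. Such a difference could not be told apart from that between the strains. In bulk RNA, a lower level may mean less RNA per cell or fewer cells that make it, and these cannot be told apart.

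Against WT, the repressor gene MIG1 rose and the activator genes CAT8 and ADR1 fell in all 4 altered strains. The share of all features called in the same direction in all 4 was not counted. MIG1 RNA was 2.32 to 3.50 times its WT level, CAT8 fell to between 0.325 and 0.363 of it, and ADR1 fell to between 0.489 and 0.614. SIP4, also an activator gene, rose in 3 strains and was lower in Pcf11-AARR. HAP4 fell in both overexpression strains, MIG2 and MIG3 rose modestly in every strain but ΔPcf11, and REG1 rose in both overexpression strains. SNF1 and SNF4, which encode the kinase and its activator, passed the test in none of the 4 strains. Scaling by total counts alone also called REG1 higher in Pcf11-AARR, SNF4 in all 4 strains and SNF1 in both overexpression strains, with values given below. All 4 comparisons use the same 3 WT libraries and are therefore not independent.

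**Figure D1:**
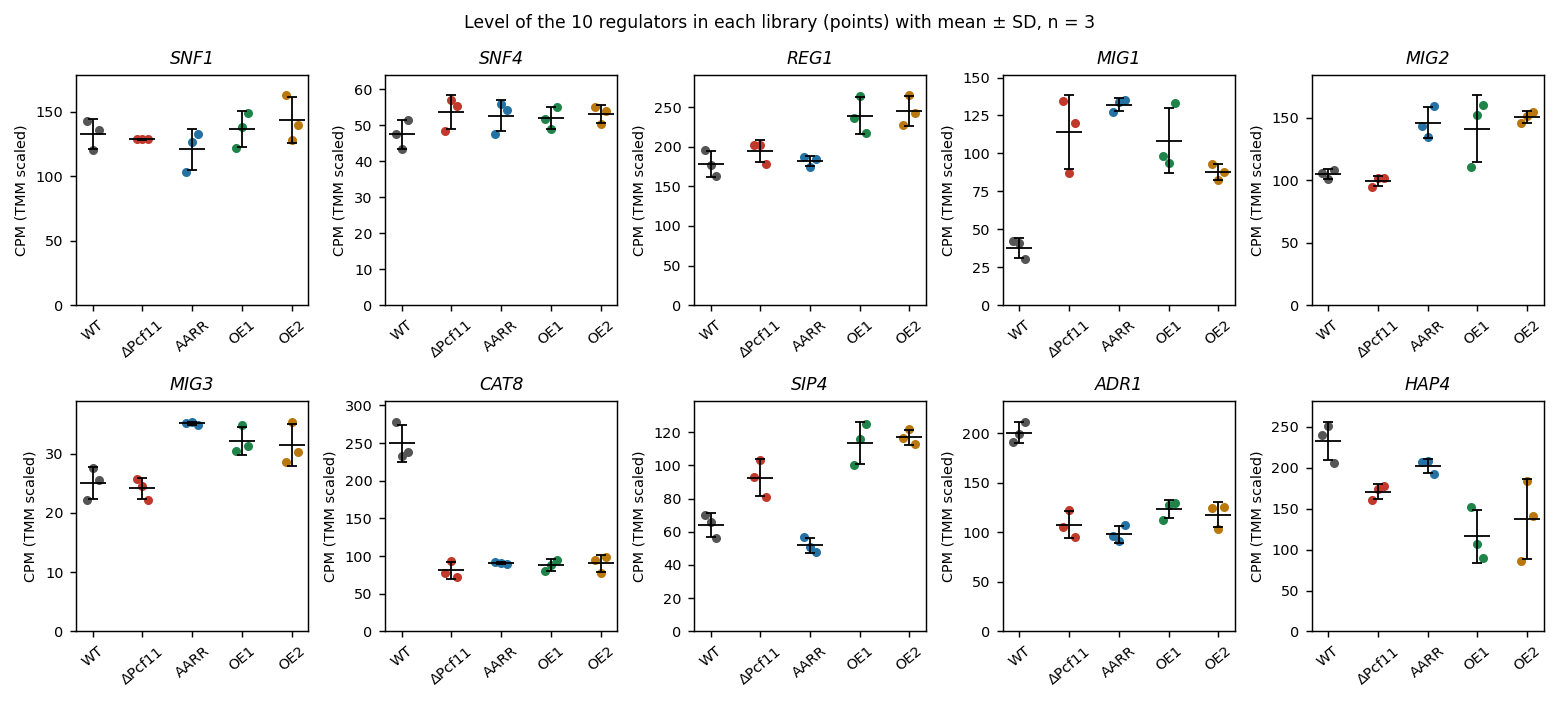
CPM after TMM scaling (vertical axes, each from 0) of the 10 regulators in the 15 libraries, with 3 points per strain and the mean ± SD as a black bar. The 3 WT libraries of CAT8 (233 to 278 CPM) lie above all 12 other libraries (at most 98.6), and those of MIG1 (at most 42.1) lie below all others (at least 82.4).

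At a Benjamini-Hochberg adjusted p of 0.05 over 6147 features, 2 of the 10 regulators rose and 2 fell in ΔPcf11, where 34.8% of all features rose and 29.1% fell. In Pcf11-AARR, 3 rose and 3 fell, beside 33.8% and 30.4% of all features. In Pcf11-OE1, 5 rose and 3 fell, beside 36.0% and 32.1%. In Pcf11-OE2, 5 rose and 3 fell, beside 34.0% and 31.1%. With so many features called, the number of regulators called is near the background and is not a result about them. Called changes of at least 2-fold numbered 2, 3, 3 and 2 of the 10, beside 19.7, 22.0, 25.9 and 22.3% of all features. That number is near the background too, and what follows only describes the size and direction for each gene. The share of all features whose libraries did not overlap between strains was not counted. Where a regulator is said to lie wholly above or below WT, this describes its values only. The median log2 fold change of the regulators was -0.05, -0.05, 0.24 and 0.24 in the order above, beside 0.07, 0.05, 0.04 and 0.02 for all features. Regardless of sign, their median log2 change was 0.31, 0.39, 0.57 and 0.64, beside 0.50, 0.51, 0.56 and 0.52.

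**Figure D2:**
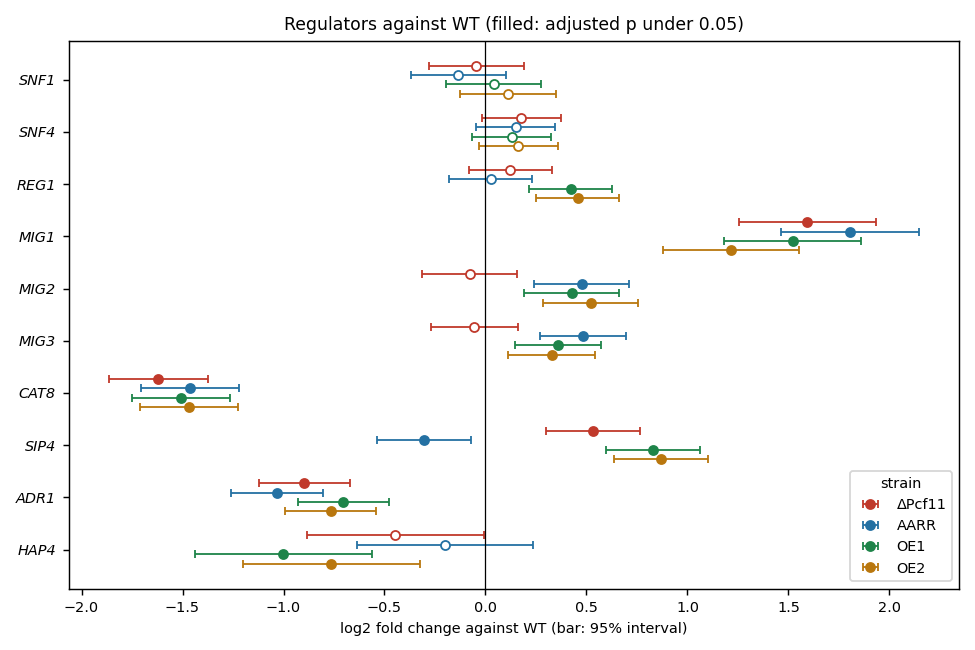
Log2 fold change against WT (horizontal axis) of each regulator in the 4 altered strains, with filled points where the adjusted p was under 0.05. Bars reach 1.96 standard errors to either side. They are labelled 95% intervals but are narrower than the edgeR test implies. The HAP4 bar in ΔPcf11 stops at -0.0097, short of no change, although its unadjusted p in that test was 0.064. MIG1 lies at 1.21 to 1.81 and CAT8 at -1.62 to -1.46 in all 4 strains, while SNF1 and SNF4 stay between -0.13 and 0.18.

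The genes of the kinase and its activator passed the test in no comparison with WT. SNF1 (YDR477W, assembly R64, chromosome IV) had 133 ± 11.5 CPM in WT, 129 ± 0.303 in ΔPcf11, 121 ± 15.7 in Pcf11-AARR, 137 ± 13.7 for Pcf11-OE1 and 143 ± 17.7 for Pcf11-OE2 (SD, n = 3 each). Its log2 fold changes against WT ran from -0.13 to 0.11 with standard errors of 0.12, the widest reach of the intervals was -0.37 in Pcf11-AARR, and the groups overlapped in every comparison. SNF4 (YGL115W, chromosome VII) had 47.5 ± 4.03 CPM in WT and means of 52.0 to 53.7 in the others, at log2 fold changes of 0.13 to 0.18 with adjusted p from 0.133 to 0.258. When libraries were scaled by total counts alone, SNF4 was called higher in all 4 strains (log2 0.30 for ΔPcf11, 0.51 for Pcf11-AARR and 0.42 for each overexpression strain) and SNF1 in both overexpression strains (0.34 in Pcf11-OE1 and 0.37 in Pcf11-OE2). That scaling also moved the median of all features, by 0.13, 0.36, 0.30 and 0.26 in the same order, and these values are close to that shift or above it by less than 0.2. Adjacent strain means did not pass the test anywhere in the order of either gene. The SNF1 feature shares 160 bases (6.77%) on the same strand with SNM1, which had 1794 to 4035 counts in a library. Other overlaps of SNF1 and SNF4 cover at most 2.53% of the feature. The part of these overlaps in the counts was not tested.

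REG1 (YDR028C, chromosome IV), the gene for the subunit that brings Glc7 to Snf1, had 196, 177 and 163 CPM in the WT libraries. The Pcf11-OE1 libraries had 237, 264 and 217 CPM and the Pcf11-OE2 libraries 227, 265 and 243. Every overexpression library lay above every WT library. The log2 fold changes were 0.42 (SE 0.11, adjusted p = 0.0025) and 0.46 (SE 0.11, adjusted p = 0.00153). ΔPcf11 (195 ± 13.9 CPM) and Pcf11-AARR (182 ± 6.52) gave 0.12 and 0.03, with adjusted p of 0.318 and 0.835. Scaled by total counts, Pcf11-AARR was called higher at 0.39 (adjusted p = 0.0109), close to the shift of 0.36 that this scaling gave the median of all features there.

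MIG1 (YGL035C, chromosome VII), the gene for the main glucose repressor, had 42.1, 41.2 and 30.1 CPM in WT. ΔPcf11 had 135, 87.4 and 119.9 CPM, Pcf11-AARR 127, 134 and 135, Pcf11-OE1 98.4, 93.8 and 133, and Pcf11-OE2 92.8, 82.4 and 87.9. The WT libraries were the lowest without exception, and no altered strain overlapped them. The log2 fold change of ΔPcf11 was 1.59 (SE 0.17, adjusted p = 2.52e-06), that of Pcf11-AARR 1.81 (SE 0.17, 6.69e-07), that of Pcf11-OE1 1.52 (SE 0.17, 2.62e-06) and that of Pcf11-OE2 1.21 (SE 0.17, 2.44e-05), and under every alternative it lay between 1.07 and 2.17. From Pcf11-AARR through ΔPcf11 and Pcf11-OE1 to Pcf11-OE2, neighbours in the order of means did not pass the test, but Pcf11-OE2 was below Pcf11-AARR (log2 -0.59, SE 0.17, adjusted p = 0.01).

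The count of MIG1 has a limit that comes from the features. As deposited, a feature runs past the coding region at its 3' end, by 400 to 497 bases for the 10 regulators, and 760 bases (37.8%) of the MIG1 feature overlap YGL036W on the other strand. Per the labels, a kit that keeps the strand was used, but the strand setting of the counting is named in none of the sources used here. YGL036W had 44.7 ± 7.23 CPM in WT and means of 61.2 to 66.5 in the altered strains, with log2 fold changes of 0.45 to 0.57 that all passed the test. These are smaller than the differences of MIG1, and their part in them was not tested. In the CLIP inputs, where the authors counted strands apart, MIG1 had 116 sense and 1 antisense reads in the first and 91 and 3 in the second.

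MIG2 (YGL209W, chromosome VII) and MIG3 (YER028C, chromosome V), which encode relatives of Mig1, moved less than MIG1. Both rose in Pcf11-AARR, Pcf11-OE1 and Pcf11-OE2, and neither passed the test in ΔPcf11. MIG2 had 105 ± 3.78 CPM in WT, 99.3 ± 4.33 in ΔPcf11, 146 ± 12.5 in Pcf11-AARR, 141 ± 26.6 for Pcf11-OE1 and 150.4 ± 4.57 for Pcf11-OE2. Its log2 fold changes were 0.48 (SE 0.12, adjusted p = 0.00296), 0.43 (SE 0.12, 0.00538) and 0.52 (SE 0.12, 0.00153) in the last 3, and -0.08 in ΔPcf11 (adjusted p = 0.582). Of the Pcf11-OE1 libraries, replicate 1 (111 CPM) lay just above the highest WT library (108) and the others at 152 and 160.4. MIG2 shares 133 bases (8.25%) with the next gene on the same strand, SIP2, whose log2 fold changes were -0.36 in ΔPcf11, 0.59 in Pcf11-AARR, and 0.30 and 0.37 in the OE1 and OE2 strains. The part of those reads in the counts of MIG2 was not tested. In the CLIP inputs MIG2 had 36 sense and 59 antisense reads in the first and 48 and 39 in the second. MIG3 had 5 sense and 3 antisense reads in the first and 11 and 2 in the second. Over all genes 3.40% and 3.12% of input reads were antisense. Whether antisense reads entered the RNA-seq counts of MIG2 and MIG3 was not tested.

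MIG3 had 25.1 ± 2.75 CPM in WT and 24.1 ± 1.84 in ΔPcf11, and 35.1, 35.3 and 34.8 CPM in the Pcf11-AARR libraries, all above the highest WT library (27.6). The log2 fold change was 0.48 in Pcf11-AARR (SE 0.11, adjusted p = 0.00131), 0.36 in Pcf11-OE1 (SE 0.11, 0.00902) and 0.33 in Pcf11-OE2 (SE 0.11, 0.0163). The call in Pcf11-OE2 was lost with only the groups compared in the fit (adjusted p = 0.058), without WT replicate 1 (0.0811), without Pcf11-OE2 replicate 2 (0.0937) and without Pcf11-OE2 replicate 3 (0.09), and the call in Pcf11-OE1 was lost without Pcf11-OE2 replicate 3 (0.0657). Among the 45 pairs of regulators, MIG2 and MIG3 had the smallest root mean square difference of WT-centred log2 CPM over the 12 libraries of the altered strains, 0.177, and MIG1 and CAT8 the largest, 3.07.

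CAT8 (YMR280C, chromosome XIII) encodes a zinc cluster activator of gluconeogenic genes, and its own transcription is known to be repressed through Mig1. Its feature overlaps no other. The WT libraries had 278, 233 and 238 CPM. ΔPcf11 had 77.8, 94.0 and 72.1 CPM, Pcf11-AARR 92.0, 90.6 and 89.5, Pcf11-OE1 79.8, 88.7 and 95.1, and Pcf11-OE2 95.2, 77.5 and 98.6. The altered strains lay close together and far below WT. The log2 fold change of ΔPcf11 was -1.62 (SE 0.12, adjusted p = 7.1e-08), that of Pcf11-AARR -1.46 (SE 0.12, 1.77e-07), that of Pcf11-OE1 -1.51 (SE 0.12, 1.03e-07) and that of Pcf11-OE2 -1.47 (SE 0.12, 1.64e-07), and these lay between -1.74 and -1.10 under every alternative. No pair of altered strains passed the test for CAT8, although total count scaling called it higher than in ΔPcf11 in each of the others (log2 0.39, 0.28 and 0.29).

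The stretches from 300 to 151 bases before the start codon of MIG1, CAT8 and SIP4 are printed because these genes gave the largest rise, the largest fall and the only change of direction. They were read from the RefSeq genome R64 on the strand of the gene, at chrVII:433213-433362 (minus), chrXIII:831480-831629 (minus) and chrX:265626-265775 (plus). Capitals mark matches on either strand to letters known for these regulators, namely GCGGGG or GTGGGG for Mig1 and its relatives, CCNNNNNNCCG for Cat8 and Sip4, TTGGGG or TTGGAG for Adr1 and CCAAT for the Hap complex.
MIG1: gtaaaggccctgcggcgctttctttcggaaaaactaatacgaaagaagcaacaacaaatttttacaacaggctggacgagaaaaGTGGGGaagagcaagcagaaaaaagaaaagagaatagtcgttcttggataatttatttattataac
CAT8: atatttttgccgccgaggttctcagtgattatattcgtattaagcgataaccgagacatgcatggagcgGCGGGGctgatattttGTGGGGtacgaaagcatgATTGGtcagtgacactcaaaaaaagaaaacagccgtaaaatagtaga
SIP4: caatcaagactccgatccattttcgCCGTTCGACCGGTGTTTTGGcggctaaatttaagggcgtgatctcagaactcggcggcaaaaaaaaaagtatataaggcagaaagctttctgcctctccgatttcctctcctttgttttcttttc
Within the full 300 bases before the start codon, CAT8 held 2 Mig matches, 231 and 215 bases before it, and MIG1 held 1 at 216 bases. In all, 3 of the 10 regulators (MIG1, MIG3 and CAT8) held a Mig match, beside 7.40% of 6001 protein coding genes. The Cat8 and Sip4 letters were found in SIP4 alone of the 10, with 2 matches on opposite strands that overlap by their ends, beside 11.1% of all genes. The Hap letters, present in 41.8% of genes, were found in 6 of the 10 and the Adr1 letters, in 15.2% of genes, in 1 of the 10, MIG3. A match describes the letters only.

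SIP4 (YJL089W, chromosome X) encodes a zinc cluster activator that binds the same element as Cat8 and is itself activated through Snf1. Its WT libraries had 70.1, 65.6 and 56.4 CPM. ΔPcf11 had 93.1, 103 and 81.2 CPM, Pcf11-OE1 99.9, 116 and 125, and Pcf11-OE2 116, 122 and 113. All 9 of these libraries lay above WT, at log2 fold changes of 0.53 (SE 0.12, adjusted p = 0.00127), 0.83 (SE 0.12, 2.36e-05) and 0.87 (SE 0.12, 1.74e-05). Pcf11-AARR had 56.9, 50.7 and 47.9 CPM, of which the highest lay within the WT range. Its log2 fold change against WT was -0.30 (SE 0.12, adjusted p = 0.0352).

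That last call was weak. It was lost without WT replicate 1 (log2 -0.24, adjusted p = 0.133), WT replicate 2 (-0.29, 0.0834), Pcf11-AARR replicate 2 (-0.29, 0.0893) or Pcf11-AARR replicate 3 (-0.25, 0.11), and scaling by total counts gave 0.0528 (adjusted p = 0.704). The direct comparisons of SIP4 between altered strains were firmer. Pcf11-AARR was lower than ΔPcf11 by log2 -0.84 (SE 0.12, adjusted p = 0.000124) with no overlap, and lower than each overexpression strain, with log2 fold changes of 1.13 and 1.17 (SE 0.12 each) for these over Pcf11-AARR. In the order Pcf11-OE2, Pcf11-OE1, ΔPcf11, WT and Pcf11-AARR, only the neighbours Pcf11-OE2 and Pcf11-OE1 did not pass the test (adjusted p = 0.964), and the step from Pcf11-OE1 to ΔPcf11 was near the threshold (adjusted p = 0.0413) and overlapped. That step was called under 12 of 21 alternatives. It was lost with the relative log expression scaling, in a fit of only the 2 groups, and without WT replicate 2, ΔPcf11 replicate 1 or 3, Pcf11-AARR replicate 2, Pcf11-OE1 replicate 2 or 3, or Pcf11-OE2 replicate 3, with log2 values of at least 0.21 and adjusted p of at most 0.178.

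ADR1 (YDR216W, chromosome IV) encodes a zinc finger activator of genes for ethanol, glycerol and fatty acid use. Its WT libraries had 191, 199.6 and 212 CPM. ΔPcf11 had 106, 122 and 95.5 CPM, Pcf11-AARR 96.1, 90.9 and 108, Pcf11-OE1 113, 128 and 129, and Pcf11-OE2 125, 103 and 126. Every altered library lay below every WT library. The log2 fold change was -0.90 (SE 0.12, adjusted p = 1.16e-05), -1.03 (SE 0.12, 2.81e-06), -0.70 (SE 0.12, 7.98e-05) and -0.77 (SE 0.12, 4.19e-05) in this order of strains, and it kept its call under every alternative. The ADR1 feature overlaps RAD9 on the other strand by 339 bases (7.67%), and the log2 fold changes of RAD9 were 0.55, 0.47, 0.48 and 0.21, the last of which did not pass the test (adjusted p = 0.13). It also shares 402 bases (9.10%) on the same strand with a feature that has no gene name and that had 55 to 154 counts in a library, beside 2715 to 7545 for ADR1. The part of either overlap in the counts of ADR1 was not tested.

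HAP4 (YKL109W, chromosome XI) encodes the activating subunit of the Hap complex of respiratory genes. The WT libraries had 240.3, 251 and 206 CPM, ΔPcf11 160.1, 174 and 178, and Pcf11-AARR 207, 208 and 192. The Pcf11-OE1 libraries were spread over 152, 107 and 89.6 CPM and the Pcf11-OE2 libraries over 85.9, 183 and 142, so that the overexpression strains had the widest replicate spread of the 5. Both lay wholly below WT, with log2 fold changes of -1.001 (SE 0.22, adjusted p = 0.00114) and -0.76 (SE 0.22, adjusted p = 0.00779), the second of which lost its call under total count scaling (log2 -0.48, adjusted p = 0.0787). ΔPcf11 lay wholly below WT as well, but gave -0.45 (SE 0.22, adjusted p = 0.092), and that value passed the test in a fit of each table alone (-0.52, adjusted p = 0.000986), of only these groups (-0.50, 0.00249) or without Pcf11-OE2 replicate 1 (-0.45, 0.0267). Pcf11-AARR, at -0.20, did not pass (adjusted p = 0.443).

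Per kilobase of feature, HAP4 was the highest of the 10 genes in WT at 111 ± 11.2 RPKM (CPM per kilobase), and MIG3 the lowest at 15.1 ± 1.66. MIG1 was second lowest in WT at 18.8 ± 3.33 RPKM and CAT8 stood at 52.9 ± 5.22. In the altered strains MIG1 lay above CAT8, at strain means of 43.6 to 65.6 RPKM for MIG1 and 17.2 to 19.2 for CAT8.

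The altered strains were also compared with each other. Between Pcf11-AARR and ΔPcf11, 2 regulators were higher and 1 lower in Pcf11-AARR, beside 18.8% and 21.8% of all features. These were MIG2 (log2 0.55, SE 0.12, adjusted p = 0.00252), MIG3 (0.54, SE 0.11, 0.0016) and SIP4 (given above). Between Pcf11-OE2 and Pcf11-OE1 none of the 10 passed the edgeR test, which called 0.260% of all features higher and 1.29% lower. None had an unadjusted p under 0.05 and DESeq2 called 0 of the 10. The log2 differences ran from -0.31 for MIG1 (SE 0.17, interval -0.63 to 0.02) to 0.24 for HAP4 (SE 0.22, interval -0.20 to 0.67). These intervals are 1.96 standard errors to either side and somewhat narrow, so differences within or slightly beyond them are not excluded. PCF11 RNA itself stood at 76.2 against 589.8 CPM.

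Against ΔPcf11, 5 regulators passed the test in Pcf11-OE1 (60.1% of all features did) and 4 in Pcf11-OE2 (57.2%). REG1, MIG2, MIG3 and SIP4 were higher in both, with log2 values of 0.30 and 0.33, 0.51 and 0.60, 0.41 and 0.38, and 0.30 and 0.34. HAP4 was lower in Pcf11-OE1 (-0.56, adjusted p = 0.0431), a call held under 8 of 21 alternatives, and every choice of library left out but Pcf11-AARR replicate 3, Pcf11-OE1 replicate 1 and Pcf11-OE2 replicates 1 and 2 ended it. The calls of REG1 were lost in both comparisons in a fit of only the 2 groups (adjusted p = 0.0968 and 0.0541) and without ΔPcf11 replicate 3, without Pcf11-OE1 replicate 2 or Pcf11-OE2 replicate 3 in the first and without Pcf11-OE2 replicate 2 in the second, at log2 values of at least 0.22 and 0.27. The call of SIP4 in Pcf11-OE2 was lost without ΔPcf11 replicate 3 (log2 0.25, adjusted p = 0.118) or Pcf11-OE2 replicate 2 (0.31, 0.0676). Against Pcf11-AARR, 4 passed in Pcf11-OE1 (50.2% of features) and 4 in Pcf11-OE2 (48.6%). REG1 and SIP4 were higher and HAP4 lower in both, ADR1 was higher in Pcf11-OE1 (0.33, adjusted p = 0.0283, called under 14 of 21 alternatives, and lost with total counts, in a fit of only the 2 groups and without Pcf11-AARR replicate 1 or 2, Pcf11-OE1 replicate 2 or 3 or Pcf11-OE2 replicate 3) and MIG1 lower in Pcf11-OE2. HAP4 in Pcf11-OE2 (-0.56, adjusted p = 0.0489) held under 6 of 21 alternatives only, and was -0.32 (adjusted p = 0.174) without Pcf11-OE2 replicate 1.

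Lists of pathway genes around the regulators were counted in the same fit, where 34.8, 33.8, 36.0 and 34.0% of all features rose and 29.1, 30.4, 32.1 and 31.1% fell in the 4 strains in turn. Of 6 upstream kinases and beta subunits of Snf1, 2, 5, 4 and 4 rose and 2, 1, 1 and 1 fell, given here and for the lists that follow with ΔPcf11 first, then Pcf11-AARR, then Pcf11-OE1 and Pcf11-OE2 last. TOS3, which encodes a kinase that activates Snf1, was the highest in the last 3, at log2 2.21 (SE 0.29, adjusted p = 1.29e-05), 1.64 (SE 0.29) and 1.85 (SE 0.29). It had 4.32 ± 0.226 CPM in WT, 20.1 ± 2.28 in Pcf11-AARR and 8.99, 19.0 and 12.3 in Pcf11-OE1. SAK1, for another kinase of the same step, was the highest in ΔPcf11 at 0.77, and SIP1, for a beta subunit, was the lowest in all 4, at -0.45 to -0.34 outside Pcf11-AARR and -0.81 there. Scaled by total counts, 3, 5, 4 and 4 of the 6 rose and 1, 1, 0 and 0 fell.

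Of 8 genes for partners of Reg1 and Mig1, 2, 4, 2 and 2 rose and 3, 3, 5 and 5 fell. NRG1, for a repressor that acts beside Mig1, was highest in ΔPcf11 (log2 1.58, SE 0.11) and in Pcf11-OE2 (1.12, SE 0.11), and CYC8, for a subunit of the corepressor Mig1 recruits, in Pcf11-AARR (0.98, SE 0.11) and Pcf11-OE1 (1.15, SE 0.11). The lowest were SIP5, whose product binds Reg1 and Snf1, in the first 3 strains (-1.36, -1.38 and -0.98) and TUP1, for the other corepressor subunit, in Pcf11-OE2 (-1.003, SE 0.08). With total counts as the scale 2, 5, 3 and 3 of the 8 rose and 3, 2, 3 and 3 fell. Of 8 genes of the Snf3 and Rgt2 glucose sensing route, 3, 1, 3 and 3 rose and 4, 4, 0 and 4 fell. STD1, which encodes a cofactor of the repressor Rgt1, was the highest in each (1.03, 0.97, 1.89 and 1.45), RGT1 was the lowest in ΔPcf11 and Pcf11-AARR (-0.97 and -1.06) and YCK2 in Pcf11-OE2 (-0.41). Under total count scaling 3, 4, 3 and 3 of these 8 rose and 4, 1, 0 and 0 fell, so that the balance turned in Pcf11-AARR and the falls in Pcf11-OE2 were lost.

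Of 10 genes for Hap partners and other activators of respiration or gluconeogenesis, 1, 3, 4 and 3 rose and 6, 6, 6 and 7 fell, with medians of -0.47, -0.81, -0.45 and -0.54 beside 0.07, 0.05, 0.04 and 0.02 for all features. HAP1, for the heme responsive activator, was the lowest in every strain (-1.06, -1.37, -0.82 and -0.80). HAP3 and HAP5, for DNA binding subunits of the Hap complex, were the highest in Pcf11-AARR (HAP3, 0.93), Pcf11-OE1 (HAP3, 1.41) and Pcf11-OE2 (HAP5, 1.34), while HAP4 fell or did not pass the test. ERT1 was the highest in ΔPcf11 (0.52, SE 0.16). Under total count scaling 1, 3, 4 and 3 of the 10 rose and 5, 6, 3 and 4 fell, with medians of -0.34, -0.45, -0.16 and -0.28.

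**Figure D3:**
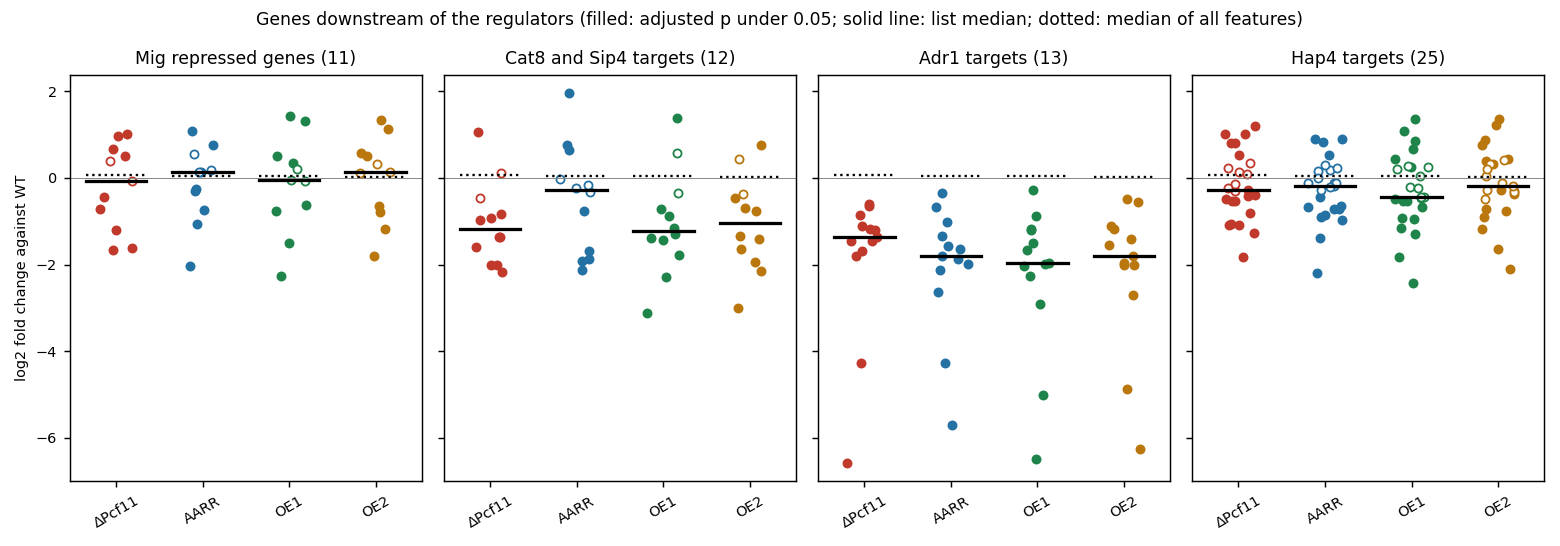
Log2 fold change against WT of each gene in 4 lists downstream of the regulators, by altered strain, with filled points where the adjusted p was under 0.05, the list median as a solid line and the median of all features as a dotted line. All 13 Adr1 targets lie below 0 in each strain, with medians of -1.37 to -1.96, while the Mig repressed genes lie on both sides of 0.

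Genes downstream of each regulator were counted in the same way. Of 13 Adr1 targets, all 13 fell in each of the 4 strains, with medians of -1.37, -1.80, -1.96 and -1.80. Under total count scaling 11, 11, 12 and 11 of them fell and none rose. Within a strain, single libraries were the highest for most genes of this list. Replicate 1 was the highest of its strain for 13 of 13 genes in ΔPcf11 and in Pcf11-OE2, and replicate 3 for 12 of 13 in Pcf11-OE1 and in Pcf11-AARR. The same was not counted over all features, so whether it is particular to this list was not tested. For POX1, the first enzyme of fatty acid oxidation, picked after its values were seen, the Pcf11-OE2 libraries had 308, 55.6 and 66.5 CPM, beside 498 to 601 in WT. Without Pcf11-OE2 replicate 1 the median there was -2.34 and without ΔPcf11 replicate 1 it was -1.81, with all 13 lower in each, while without Pcf11-OE1 replicate 3 it was -2.21 with 12 lower. In ΔPcf11 only 10 were called lower without ΔPcf11 replicate 2 or 3, at medians of -1.17 and -1.26. Likewise 10 were left there without WT replicate 1, 2 or 3, at medians of -1.45, -1.34 and -1.32. Leaving out Pcf11-AARR replicate 1 or 2 left 12 and 11 there. Over all libraries left out, 13 were lower in Pcf11-AARR and 12 or 13 in each overexpression strain. The lowest in each was ADY2, for an acetate transporter, which had 19383, 20193 and 23166 CPM in WT and 115 to 537 CPM in the other libraries, at log2 -6.58 (SE 0.68, adjusted p = 1.6e-06) in ΔPcf11 and -5.71, -6.49 and -6.25 in the other strains. ADH2, for the alcohol dehydrogenase that consumes ethanol and the classical target of Adr1, was picked after its values were seen. It had 2934 ± 239 CPM in WT and means of 90.5 to 153 in the altered strains, at -4.26, -4.28, -5.02 and -4.88.

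Of 12 genes listed for Cat8 and Sip4, 1, 3, 1 and 1 rose and 9, 5, 9 and 9 fell, with medians of -1.17, -0.28, -1.23 and -1.05. Under total count scaling 1, 3, 2 and 2 rose and 9, 4, 8 and 7 fell, and the median in Pcf11-AARR turned to 0.08. ICL1, for isocitrate lyase of the glyoxylate cycle, went against the list in ΔPcf11, Pcf11-AARR and Pcf11-OE2, where it was the highest (1.05, 1.96 and 0.75). It had 571, 517 and 637 CPM in WT and 2279, 1877 and 2546 in Pcf11-AARR. YAT1, for a carnitine acetyltransferase, was the lowest in Pcf11-AARR (-2.13, SE 0.26) and the highest in Pcf11-OE1 (1.39, SE 0.26). ACS1, for acetyl coenzyme A synthetase, was the lowest in ΔPcf11 (-2.18, SE 0.37). MDH2, for the cytosolic malate dehydrogenase, was the lowest in Pcf11-OE1 and Pcf11-OE2 (-3.12 and -3.01), with 1293 ± 12.5 CPM in WT and 149 ± 51.9 and 161 ± 39.6 there. Between Pcf11-AARR and ΔPcf11, 7 of the 12 were higher in Pcf11-AARR and none lower, beside 18.8% and 21.8% of all features. Leaving out single libraries was not tried for this count. Single libraries were the highest for most genes of this list too. Replicate 3 was the highest of its strain for 11 of the 12 in Pcf11-AARR and all 12 in Pcf11-OE1, and replicate 1 for 11 in Pcf11-OE2. Here again the share over all features was not counted.

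Of 25 Hap4 targets, mostly subunits of the respiratory chain, 6, 4, 6 and 7 rose and 12, 10, 11 and 9 fell. Their medians of -0.29, -0.18, -0.44 and -0.20 became -0.16, 0.18, -0.14 and 0.08 under total count scaling, where 6, 9, 9 and 11 rose and 10, 8, 6 and 6 fell, so that the balance of counts turned in all but ΔPcf11. QCR8, for a subunit of the cytochrome bc1 complex, was the lowest in every strain (-1.83, -2.19, -2.42 and -2.11, SE 0.15 each), with 780.0 ± 43.3 CPM in WT and means of 146 to 219 elsewhere. The highest were QCR7 in ΔPcf11 (1.20), CYT1 in Pcf11-AARR (0.90) and CYC1, for cytochrome c, in Pcf11-OE1 and Pcf11-OE2 (1.35 and 1.35). Replicate 2 was the highest of its strain for 23 of the 25 in ΔPcf11 and for 17 in Pcf11-OE1, and the share over all features was not counted. Of 11 genes repressed by Mig proteins, 4, 2, 4 and 4 rose and 5, 5, 4 and 4 fell, with medians of -0.07, 0.13, -0.04 and 0.13. HXT13, for a hexose transporter, was the lowest in each (-1.66, -2.04, -2.27 and -1.80). The highest were HXT2 in ΔPcf11 (1.01), HXT4 in Pcf11-AARR and Pcf11-OE2 (1.08 and 1.33), both for glucose transporters, and MTH1 in Pcf11-OE1 (1.42). Under total count scaling 5, 6, 5 and 6 of the 11 rose and 4, 3, 3 and 2 fell. The lists were written with earlier results of these data known, and nothing is read from them beyond these counts.

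The genes whose pattern over the 12 altered libraries was most like each regulator were found by the root mean square difference of WT-centred log2 CPM among 5679 genes with a standard name. KRE2 was nearest to ADR1 (0.0904) and PXL1 to REG1 (0.0919). SNG1 and ARP8 were nearest to CAT8 (0.172 and 0.179), PPH3 and TRL1 to MIG1 (0.164 and 0.198), FOL3 and RGT2 to SIP4 (0.228 and 0.236) and NET1 and HEL1 to HAP4 (0.257 and 0.303). For the others the nearest lay at 0.107 to SNF1 (BRO1), 0.112 to SNF4 (YUR1), 0.130 to MIG2 (GTR2) and 0.112 to MIG3 (MRP51).

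In the CLIP libraries, SIP4 carried the highest peak of the regulators. The authors called 1332 and 1707 peaks in the immunoprecipitations, with median heights of 11 and 13 reads. The SIP4 peaks spanned chrX:265890-269733 with 484 reads and a height of 74 in the first and chrX:265824-269863 with 752 reads and a height of 97 in the second, rank 53 and rank 58 by height. Both covered the coding region whole and ran on over the next gene, ARG3, which lies on the same strand from 268799. Their summits lay 188 and 181 bases past the stop codon. The 30 bases around each summit, on the sense strand of R64 with T for U and the summit base in capitals, at chrX:268588-268617 and chrX:268581-268610, are shown because the summits of both libraries lay in or beside the same run of T, the first inside it and the second on the base before it.
SIP4 first IP: ccggacaaattttttTgagccggattggtc
SIP4 second IP: gaaatgcccggacaaAtttttttgagccgg
In the inputs SIP4 stood at 563 and 566 FPKM (fragments scaled by feature length and library total), higher than 98.9% of genes in each, whereas the RNA-seq libraries placed it above 33.8 to 56.6% of features per kilobase. The height of a peak was not scaled to this level.

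**Figure D4:**
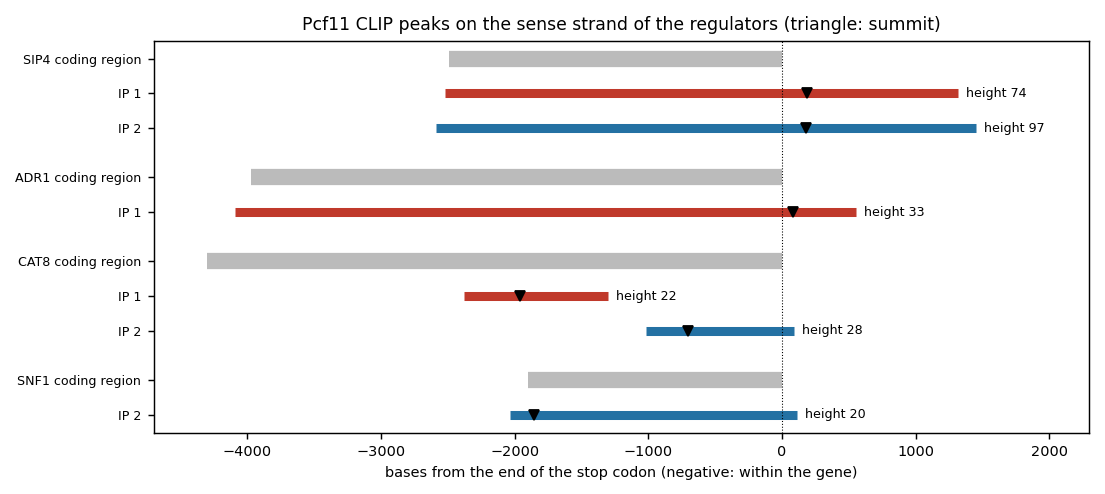
Extent of the sense peaks (bars) and their summits (triangles) in the first and second immunoprecipitation (IP) relative to the stop codon, for the regulators with such a peak over their own coding region, with the highest read depth beside each. The SIP4 summits lie at 188 and 181 bases past the stop codon in both libraries, and the CAT8 peaks of the 2 libraries lie apart.

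The other regulators had lower or less repeatable peaks. ADR1 had a sense peak in the first immunoprecipitation alone, chrIV:894913-899557, with 429 reads, a height of 33 and a summit 84 bases past the stop codon. CAT8 had sense peaks in both, at chrXIII:828332-829411 (64 reads, height 22) and chrXIII:826936-828048 (115 reads, height 28), with summits 1960 and 702 bases before the stop codon and no bases in common. SNF1 had a sense peak in the second alone (121 reads, height 20), with its summit 1853 bases before the stop codon. The peaks that the authors assigned to MIG2 in both libraries (heights 30 and 35) have summits 1438 and 1404 bases past its stop codon, within the coding region of SIP2, so they are not read as peaks of MIG2. SNF4, REG1, MIG1, MIG3 and HAP4 had no sense peak in either library. HAP4 had none although it stood at 447 and 438 FPKM in the inputs, and REG1 none at 209 and 197. Antisense peaks of height 5 to 8 were called in the first immunoprecipitation only, and the authors assigned them to SIP4, REG1, CAT8 and MIG2. The summit of the one assigned to MIG2, at chrVII:95770, lay before its coding region, which starts at 95858.

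The authors' deposited tables of differential expression hold the same regulators, with log2 fold changes given as WT over the other strain. Over the 40 values for 10 genes and 4 strains, 39 had the direction found here and 38 lay on the same side of an FDR of 0.05. The 2 others were HAP4 in ΔPcf11, at 0.50 with an FDR of 0.00227 in the authors' deposited table, and MIG3 in Pcf11-OE2, at -0.31 with an FDR of 0.0574 there. Both come from the same counts as the tests here.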

How the data were processed

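RNA was sequenced from 15 libraries of 5 yeast strains, and CLIP from 2 immunoprecipitations and 2 inputs. Reads were trimmed with fastp 0.23.0, per the submitters' processing notes. For the aligner, the counting tool and its strand setting, the sources used here name nothing. Both deposited tables hold raw read counts per feature, made by the authors, and the WT columns of the tables held identical values over 6863 shared features. Coordinates are those of assembly R64, whose chromosome accessions the file headers carry. The names of 2 features that had been turned into dates were restored. The 454 features with no gene name (0.872 to 1.39% of counts) were left out of library sizes and tests. The authors' deposited log2 fold changes and their p-values (FDR) come from a test that the file headers do not name. CLIP peak heights are a signal, the highest read depth in a peak, and peak reads are counts, per the file headers. Input FPKM values and the percent of reads mapped were deposited by the authors, the latter for 9 RNA-seq libraries.

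Counts of all 15 libraries were tested in 1 fit with edgeR 4.0.16 (R 4.3.3), with TMM scaling, filterByExpr (6147 features kept), robust quasi-likelihood F tests over 10 pairs of strains and Benjamini-Hochberg adjustment at 0.05. On counts simulated for ΔPcf11 against WT over 6147 features with 200 changed, 98% of log2 changes of 1 and 100% of log2 changes of 2 were recovered. Levels are CPM after TMM scaling. Intervals are the estimate ± 1.96 standard errors, from the normal distribution, and are narrower than the F tests imply. The biological coefficient of variation was 0.145. Same-numbered replicates of WT and Pcf11-AARR deviated together for all 3 numbers (r = 0.147, 0.173 and 0.23). In none of the 9 other pairs of strains were all 3 values of r over 0.1, although single values over all pairs ran from -0.508 to 0.393. The labels do not state what a number marks. Alternatives were relative log expression or total count scaling, no filter, DESeq2 1.42.0, 1 fit per table, only the groups compared, a replicate block and leaving out each library. Promoters, motifs and figures were made with Python 3.11.15, pandas 2.3.3, numpy 2.4.6 and matplotlib 3.10.9. Named genes are the 10 regulators, the highest and lowest called gene of each list in each comparison with WT and the nearest genes by pattern. Beside them stand PCF11, genes whose features overlap a regulator (YGL036W, SIP2, RAD9, SNM1 and ARG3), and ADH2 and POX1, picked after their values were seen. The regulators, lists and tests were chosen with earlier results of these data known.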

Additional observations from a re-analysis of the deposited data

Results flagged for a closer look

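SIP4 differed in direction between altered strains set against the same WT libraries, rising in ΔPcf11, Pcf11-OE1 and Pcf11-OE2 and being lower in Pcf11-AARR. The difference itself passed the edgeR test in each direct comparison, at a log2 fold change of -0.84 for Pcf11-AARR over ΔPcf11 (adjusted p = 0.000124), 1.13 for Pcf11-OE1 over Pcf11-AARR and 1.17 for Pcf11-OE2 over Pcf11-AARR. These direct differences passed under every alternative, whereas the lower level of Pcf11-AARR against WT did not.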

How the results depend on the processing

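Every count of features called stayed within 1.5 times its value in the report, at 3473 to 4332 for the 4 comparisons with WT. Scaling by total counts turned SIP4 in Pcf11-AARR against WT to a log2 fold change of 0.0528 (adjusted p = 0.704) and raised the regulators called between Pcf11-AARR and ΔPcf11 from 3 to 5. It also raised the share of higher genes among those called against WT from 54.5, 52.7, 52.9 and 52.3% to 64.6, 76.2, 70.7 and 69.4%, in the order ΔPcf11, then Pcf11-AARR, then Pcf11-OE1 and last Pcf11-OE2, and from 46.3 to 75.9% for Pcf11-AARR against ΔPcf11. A fit of only the 2 groups lowered the regulators called in Pcf11-OE1 against ΔPcf11 from 5 to 3. Leaving out 1 library at a time gave 2 to 5 there and 2 to 5 for Pcf11-OE2 against ΔPcf11. The replicate block changed 2 of 100 regulator calls (HAP4 in Pcf11-OE1 against ΔPcf11 and in Pcf11-OE2 against Pcf11-AARR) and no call in Pcf11-AARR against WT, where 3894 features were called with it and 3942 without. Of 2160 regulator values under the alternatives, 63 lost and 22 gained a call, and 70 changed sign, 1 of them (SIP4 above) where either value was called. For the gene lists, the alternatives were chosen after seeing the data, namely the other scalings and leaving out 1 library at a time. The latter moved, against WT and by over 1.5 times, the falls among Mig repressed genes in Pcf11-AARR (5 to 3 without WT replicate 2 or 3 or Pcf11-AARR replicate 1 or 3), among glucose sensing genes in Pcf11-OE2 (4 to 2 without WT replicate 2 or Pcf11-OE2 replicate 2) and some counts of 0 to 2 genes. The cause was not tested.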
